A study of Mus musculus with 5 samples.

Results

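The Nrf2 and glutathione antioxidant genes described here are 10 mouse genes, Nfe2l2, Slc7a11, Gclc, Gclm, Gsr, Gstm1, Txnrd1, Srxn1, Nqo1 and Hmox1. They were chosen by name as Nrf2 and its best-known antioxidant and glutathione targets, and each was matched to 1 of the 20178 RefSeq transcripts in the deposited tables. All 10 had an FPKM above 1 in all 5 libraries, so none was lost to the filter on low values. FPKM scales a read count to the length of its transcript and to the library's total, so it can be compared between genes, and CPM (counts per 1000000 reads) scales it to the total alone.

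RNA-seq was read from 5 libraries of cultured cells of the ICR mouse strain at passage 2, 1 library per condition. Ventral midbrain (VM) cultures, 3 in all, were labelled as astrocyte progenitor cells of postnatal day 5. One of these has no virus in its labels, and the others are titled C and NF. The fourth culture was the same cell type from the cortex (Ctx), also at postnatal day 5, and the fifth was neural progenitor cells (NPCs) from the cortex of embryonic day 12, and neither has a virus in its labels. The viruses were lentiviruses that express Nurr1 (gene Nr4a2, mouse cDNA) and Foxa2 (rat cDNA) from a CMV promoter, which is not restricted to astrocytes, or a mock virus with the empty backbone.

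The titles and treatment entries of the VM libraries titled C and NF contradict each other, since the C title carries the Nurr1 and Foxa2 entry and the NF title carries the mock entry. The titles were followed, and the libraries are called C-titled and NF-titled throughout. If the treatment entries hold instead, each NF-titled against C-titled difference below changes its sign in terms of treatment. Nr4a2 had 81, 53, 183, 106 and 93 reads in the no-virus VM, C-titled, NF-titled, Ctx astrocyte and Ctx NPC libraries, and Foxa2 had 68, 15, 216, 1 and 0 reads. Both were highest in the NF-titled library, an order that goes with the titles and does not settle the labels. The 0 reads of Foxa2 in Ctx NPCs allow a CPM of up to 0.150.

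Library totals lay between 20010818 and 22554835 reads, and 3 reads, the smallest count taken as measurable, equal a CPM of 0.133 to 0.150. The C-titled library stood apart from the other VM libraries. Against the no-virus VM library, 1077 transcripts were at least 2-fold lower and 927 at least 2-fold higher in it, whereas the NF-titled library had 83 and 40. The Ctx NPC library carried markers beyond those of its label: Gfap, an astrocyte filament gene, had a CPM of 6123 and Mbp, a myelin gene, 3769, compared with 1298 and 11.7 in Ctx astrocytes. Its progenitor markers Nes and Sox2 had a CPM of 667 and 497. The summed CPM of all 8 progenitor markers was 6250 in Ctx NPCs and 9077 in Ctx astrocytes. Of these 8 markers, 2 were at least 2-fold higher and 1 at least 2-fold lower in Ctx NPCs. All values come from bulk RNA, in which fewer cells of a type and less RNA per cell cannot be told apart.

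Nrf2, the protein of Nfe2l2, is a transcription factor that Keap1 holds in the cytoplasm and hands to degradation. Under oxidative or electrophilic stress it escapes Keap1, enters the nucleus, pairs with small Maf proteins and binds antioxidant response elements in the control regions of detoxifying genes. In brain cultures, astrocytes are known as the cells in which this pathway is most active, and they pass glutathione precursors on to neurons. Most of the control of Nrf2 acts on the protein, which RNA-seq does not measure.

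The promoter sequences were read because Nrf2 is known to bind such elements, and the stretches shown are those in which the element's core was found. RefSeq promoter windows on GRCm38.p6 covered 7 of the 10 genes with 10 start sites. The letters TGACNNNGC, the core of the antioxidant response element, were searched on both strands in the 250 bases before each start. They occurred in 3 of the 10 windows, those of Nfe2l2, Gclm and the second of 3 Txnrd1 starts, and in 3338 of all 32851 windows (10.2%). In the following lines the sequence is on the gene's own strand from 5′ to 3′, with the match in capitals, and none of these windows holds the AP-1 letters TGACTCA or TGAGTCA.
Nfe2l2, chr2:75704875-75704913, minus strand, match 240 bases before the start: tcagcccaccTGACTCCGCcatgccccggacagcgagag
Gclm, chr3:122245403-122245451, plus strand, match on the other strand 134 bases before the start: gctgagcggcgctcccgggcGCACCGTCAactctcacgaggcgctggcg
Txnrd1, chr10:82859094-82859142, plus strand, match on the other strand 92 bases before the second start: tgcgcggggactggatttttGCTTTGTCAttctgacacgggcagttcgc
A match is a description of these letters. The windows of Srxn1, Slc7a11, Gstm1 and Nqo1 held no match, which says only that the letters are not in these windows. Among the windows of these genes, that of Srxn1 alone holds the AP-1 letters TGACTCA or TGAGTCA.

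Per transcript length, Hmox1 was the most abundant of the 10 genes in every library. Hmox1 lay between 475 and 1167 FPKM and ranked between 21 and 77 among all transcripts. Slc7a11 lay between 7.52 and 11.1 FPKM in the 4 astrocyte libraries and reached 54.1 FPKM in Ctx NPCs. The summed FPKM of the 10 genes was 1510 in no-virus VM astrocytes, 1271 in the C-titled library, 1926 in the NF-titled library, 3144 in the Ctx astrocytes and 2156 in the Ctx NPCs. The C-titled library thus had the lowest sum and Ctx astrocytes the highest. Hmox1 alone made up 726 of the sum in the C-titled library and 1167 of it in Ctx astrocytes. The sum therefore weighs the abundant genes most, and Slc7a11, for example, was lowest in Ctx astrocytes.

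**Figure D1:**
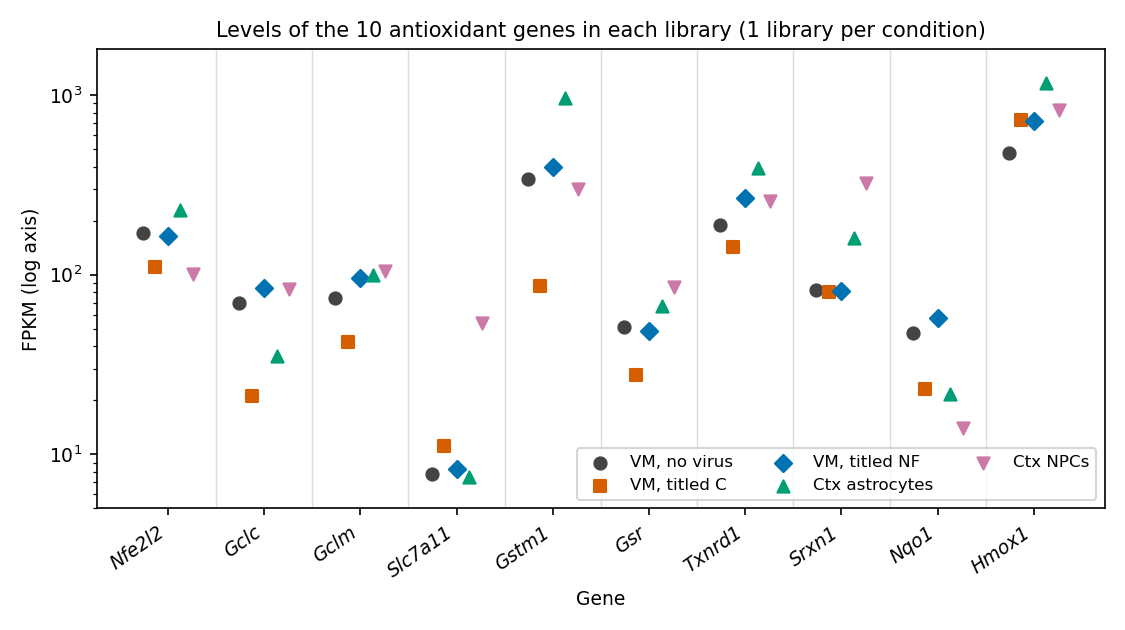
Levels of the 10 genes in each of the 5 libraries, as FPKM on a log axis, with 1 point per library and no error bar because each condition has 1 library. The C-titled point is the lowest of the 5 for Gclc, Gclm, Gstm1, Gsr and Txnrd1, and the Ctx NPC point stands far above the others for Slc7a11.

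Ratios between libraries are given as log2 of the CPM ratio, with an exact (Clopper-Pearson) 95% interval. The interval covers counting error alone and treats reads as independent, so it is too narrow where PCR copied a molecule into several reads. A gene was counted as higher or lower at 2-fold with an FPKM above 1 in at least 1 of the 2 libraries. Single libraries allow no test between conditions, so no difference below has a replicate check.

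Nfe2l2 (NM_010902, chr2:75675513-75704663 on GRCm38), the gene of Nrf2 itself, had a CPM of 428 in no-virus VM astrocytes, 278 in the C-titled library, 412 in the NF-titled library, 573 in the Ctx astrocytes and 253 in the Ctx NPCs. It was highest in Ctx astrocytes and lowest in Ctx NPCs, and its span over the 5 libraries, 2.27-fold, was the smallest of the 10 genes. The log2 ratio was 0.57 (interval 0.52 to 0.62) for NF-titled against C-titled, -0.06 (-0.10 to -0.01) for NF-titled against no virus and -0.63 (-0.67 to -0.58) for C-titled against no virus. None of these reached 2-fold. Ctx NPCs were 2.27-fold lower than Ctx astrocytes, the only one of the 5 comparisons in which Nfe2l2 passed the limit.

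Slc7a11 (NM_011990, chr3:50364936-50499087) encodes the light chain of the cystine-glutamate exchanger, which brings in the cystine used for glutathione. Its CPM was 71.8 in no-virus VM astrocytes, 102 in the C-titled library, 76.7 in the NF-titled library, 69.5 in the Ctx astrocytes and 500 in the Ctx NPCs. The NF-titled, no-virus VM and Ctx astrocyte libraries, from highest to lowest, lay close together, with intervals that held 0 between neighbours in this order. Slc7a11 ran against most of the other genes in the C-titled library, where it was above the no-virus library by a log2 ratio of 0.51 (0.42 to 0.61) and above the NF-titled library, a ratio of -0.42 (-0.51 to -0.32) for NF-titled against C-titled. Both were under 2-fold.

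Gclc (NM_010295, chr9:77754535-77794489) encodes the catalytic subunit of glutamate-cysteine ligase, the rate-limiting enzyme of glutathione synthesis. Its CPM was 239 in no-virus VM astrocytes, 72.2 in the C-titled library, 292 in the NF-titled library, 121 in the Ctx astrocytes and 287 in the Ctx NPCs. The NF-titled and Ctx NPC libraries did not differ beyond counting error, and the C-titled library was the lowest. Gclc was 4.04-fold higher in the NF-titled than in the C-titled library (log2 ratio 2.02, 1.94 to 2.10) and 3.30-fold lower in the C-titled than in the no-virus library (-1.72, -1.81 to -1.64).

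Gclm (NM_008129, chr3:122245487-122267215) encodes the modifier subunit of the same ligase, and its promoter holds the match shown above. Its CPM was 154 in no-virus VM astrocytes, 87.8 in the C-titled library, 201 in the NF-titled library, 208 in the Ctx astrocytes and 218 in the Ctx NPCs. Only the C-titled library lay below 100, and the NF-titled and Ctx astrocyte values did not differ beyond counting error. Gclm was 2.28-fold higher in the NF-titled than in the C-titled library (1.19, 1.11 to 1.27), while the C-titled against no-virus ratio of -0.82 (-0.90 to -0.73) was under 2-fold. The subunits did not keep a fixed proportion: the FPKM ratio of Gclc to Gclm was 0.933 in no-virus VM astrocytes, 0.879 in the NF-titled library, 0.793 in Ctx NPCs, 0.497 in the C-titled library and 0.351 in Ctx astrocytes.

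Gsr (NM_010344, chr8:33653238-33698162) encodes glutathione reductase, which returns oxidised glutathione to its reduced form. Its CPM was 137 in no-virus VM astrocytes, 73.7 in the C-titled library, 131 in the NF-titled library, 181 in the Ctx astrocytes and 230 in the Ctx NPCs. The no-virus and NF-titled libraries did not differ beyond counting error and the C-titled library was again the lowest. The C-titled against no-virus ratio was -0.89 (-0.98 to -0.81) and the NF-titled against C-titled ratio 0.83 (0.75 to 0.92), both under 2-fold.

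Gstm1 (NM_010358, chr3:108012250-108017973) encodes a mu-class glutathione S-transferase, which couples glutathione to electrophiles. Its CPM was 444 in no-virus VM astrocytes, 113 in the C-titled library, 517 in the NF-titled library, 1252 in the Ctx astrocytes and 390 in the Ctx NPCs, an 11.1-fold span that was the widest of the 10 genes. It was 4.58-fold higher in the NF-titled than in the C-titled library (2.20, 2.13 to 2.26) and 3.93-fold lower in the C-titled than in the no-virus library (-1.98, -2.04 to -1.91). Gstm1 has relatives of similar sequence, Gstm2 to Gstm7. The authors' counting could leave out reads that they share, so the level of Gstm1 is uncertain.

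Txnrd1 (NM_001042523, chr10:82833951-82897724) encodes cytosolic thioredoxin reductase, which keeps thioredoxin reduced. Its CPM was 693 in no-virus VM astrocytes, 518 in the C-titled library, 979 in the NF-titled library, 1439 in the Ctx astrocytes and 940 in the Ctx NPCs. The VM libraries were ordered NF-titled, no virus and C-titled, and no step between them reached 2-fold. The NF-titled library was above the C-titled one by a log2 ratio of 0.92 (0.89 to 0.95), a 1.89-fold difference, and above the no-virus one by 0.50 (0.47 to 0.53).

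Srxn1 (NM_029688, chr2:152105524-152111376) encodes sulfiredoxin, which repairs over-oxidised peroxiredoxins. Its CPM was 232 in no-virus VM astrocytes, 227 in the C-titled library, 227 in the NF-titled library, 454 in the Ctx astrocytes and 912 in the Ctx NPCs. The 3 VM libraries did not differ beyond counting error, and the ratio of NF-titled against C-titled was 0.00 (-0.05 to 0.06). Ctx NPCs were the only library in which Srxn1 had a higher FPKM than Txnrd1 (324 and 258).

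Nqo1 (NM_008706, chr8:107388225-107403205) encodes a quinone reductase that is widely used as a readout of Nrf2. Its CPM was 74.1 in no-virus VM astrocytes, 35.8 in the C-titled library, 89.3 in the NF-titled library, 33.6 in the Ctx astrocytes and 21.7 in the Ctx NPCs. The no-virus and NF-titled VM libraries were the high ones, and the C-titled and Ctx astrocyte libraries did not differ beyond counting error. Nqo1 was 2.50-fold higher in the NF-titled than in the C-titled library (1.32, 1.20 to 1.44). It was 2.07-fold lower in the C-titled than in the no-virus library (-1.05, -1.17 to -0.93), a value whose interval reaches below 2-fold.

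Hmox1 (NM_010442, chr8:75093618-75100593) encodes heme oxygenase 1, which breaks down heme and is induced by many stresses. Its CPM was 751 in no-virus VM astrocytes, 1147 in the C-titled library, 1138 in the NF-titled library, 1845 in the Ctx astrocytes and 1314 in the Ctx NPCs. The C-titled and NF-titled libraries did not differ beyond counting error, and both lay above the no-virus library, by log2 ratios of 0.61 (0.58 to 0.64) and 0.60 (0.57 to 0.63). These are 1.53-fold and 1.52-fold differences, under the 2-fold limit. The FPKM ratio of Hmox1 to Nqo1 ran from 9.99 in no-virus VM astrocytes to 59.6 in Ctx NPCs.

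In NF-titled against C-titled VM astrocytes, 4 of the 10 genes were higher (Gstm1, Gclc, Nqo1 and Gclm) and 0 were lower, compared with 9.53% higher and 9.73% lower among the 12701 transcripts tested. The median log2 ratio of the 10 genes was 0.88, and that of all tested transcripts was -0.02. Hmox1 and Srxn1 had intervals that held 0, and Slc7a11 was the only gene whose interval lay below 0.

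Both libraries were then set against the one without virus. In NF-titled against no-virus VM astrocytes, 0 of the 10 genes passed 2-fold in either direction, with 0.322% of 12428 transcripts higher and 0.668% lower. The median ratio of the 10 genes was 0.25 and the range was -0.06 to 0.60. In C-titled against no-virus VM astrocytes, 3 of the 10 were lower (Gstm1, Gclc and Nqo1) and 0 were higher, with 8.48% of 12703 transcripts lower and 7.30% higher. The median ratio was -0.72, and that of all transcripts -0.01. The 3 comparisons share their libraries pairwise and are not independent of each other.

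**Figure D2:**
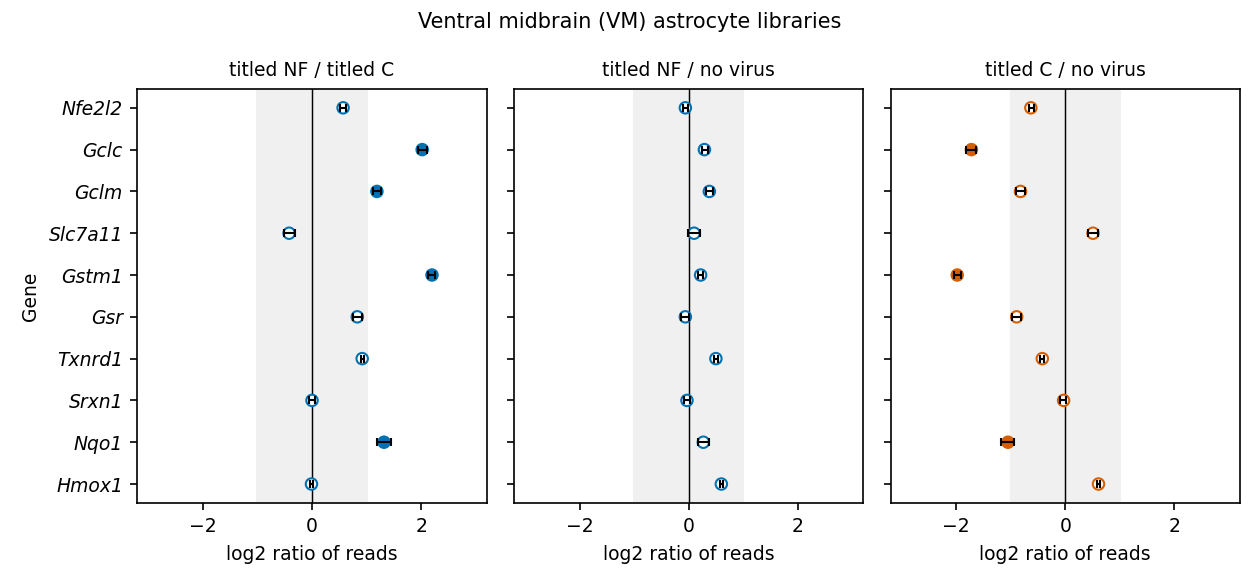
Log2 ratios of the 10 genes between the 3 VM libraries, with exact 95% counting intervals as bars, a grey band for changes under 2-fold and filled points past 2-fold. Gclc, Gclm, Gstm1 and Nqo1 lie past the band in NF-titled against C-titled, none does in NF-titled against no virus, and Gclc, Gstm1 and Nqo1 lie past it on the low side in C-titled against no virus.

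Marker genes of several cell types also differed in the C-titled library, and their part in these results was not tested. The summed CPM of 10 microglial markers was 280 in no-virus VM astrocytes, 1000 in the C-titled library and 218 in the NF-titled library, and 8 of the 9 with an FPKM above 1 were higher in C-titled than in no-virus cells. None of these markers was at 0 in the VM libraries. The sum of 7 oligodendrocyte progenitor markers was 580, 1134 and 572, with 4 of 7 higher in the C-titled library. The 10 mature oligodendrocyte markers summed to 270, 418 and 218. Of the 8 tested, 6 were higher in C-titled than no-virus cells and 1 was lower. Their log2 ratios ran from -1.75 to 6.83, and Opalin was at 0 in the no-virus and NF-titled libraries. The 6 endothelial markers summed to 67.6, 135 and 79.8, with 2 of the 3 tested higher and 1 lower. The sum of 6 ependymal markers was lowest in the C-titled library, at 329, 62.1 and 312, with 4 of the 4 tested lower. So was that of 8 fibroblast and meningeal markers, at 3043, 1841 and 3179, with 2 of 8 lower. The 10 astrocyte markers summed to 2130, 1917 and 1837, with 1 higher, S100b, and 1 lower, Aldh1l1, in the C-titled library.

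Astrocytes of the cortex and the ventral midbrain without virus were compared next. Hmox1 (2.46-fold, log2 ratio 1.30, 1.27 to 1.32), Txnrd1 (2.08-fold, 1.05, 1.02 to 1.08) and Gstm1 (2.82-fold, 1.49, 1.46 to 1.53) were higher in Ctx astrocytes, and Nqo1 was 2.20-fold lower (-1.14, -1.27 to -1.01). That is 3 of 10 higher and 1 of 10 lower, with 4.49% of 12553 transcripts higher and 9.89% lower, and a median ratio of 0.42 for the 10 genes and -0.05 for all. Gclc (-0.98, -1.05 to -0.91) and Srxn1 (0.97, 0.92 to 1.02) lay at the limit on opposite sides. Srxn1 passed it, at up to 1.03, under the 3 other library scalings. Nqo1 and Hmox1 thus differed between the regions in opposite directions. The summed astrocyte markers were 2130 in VM and 4623 in Ctx astrocytes, with 6 of 10 higher, and the summed fibroblast and meningeal markers were 3043 and 1182, with 5 of 8 lower. All 6 proliferation markers were lower in Ctx astrocytes, with sums of 348 in VM and 88.4 in Ctx, and 7 of the 8 microglial markers tested were lower, with sums of 280 and 122. Of the mature oligodendrocyte markers, 4 of the 6 tested were lower. Their part in the result was not tested.

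Ctx NPCs differed from Ctx astrocytes in age as well as in cell type. In Ctx NPCs, Slc7a11 was 7.19-fold higher (2.85, 2.77 to 2.93), Gclc 2.37-fold higher (1.25, 1.18 to 1.32) and Srxn1 2.01-fold higher (1.01, 0.97 to 1.04). Gstm1 was 3.21-fold lower (-1.68, -1.72 to -1.64) and Nfe2l2 2.27-fold lower (-1.18, -1.23 to -1.13). Of all 12623 transcripts, 20.1% were higher and 17.9% lower, and the share of the 10 genes, 3 higher and 2 lower, was near that background.

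The median of all transcripts was 0.19 in this comparison by library totals, and the 3 other scalings brought it to between 0.01 and 0.02. Relative to that shift, the Slc7a11 ratio was as low as 2.66, Gclc stayed past 2-fold at 1.06 or more, and Srxn1 dropped under it, to 0.82. Gstm1 and Nfe2l2 reached -1.87 and -1.37. Gclm had a ratio of 0.07 by library totals and of down to -0.11 under the other scalings, so it has no direction here.

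**Figure D3:**
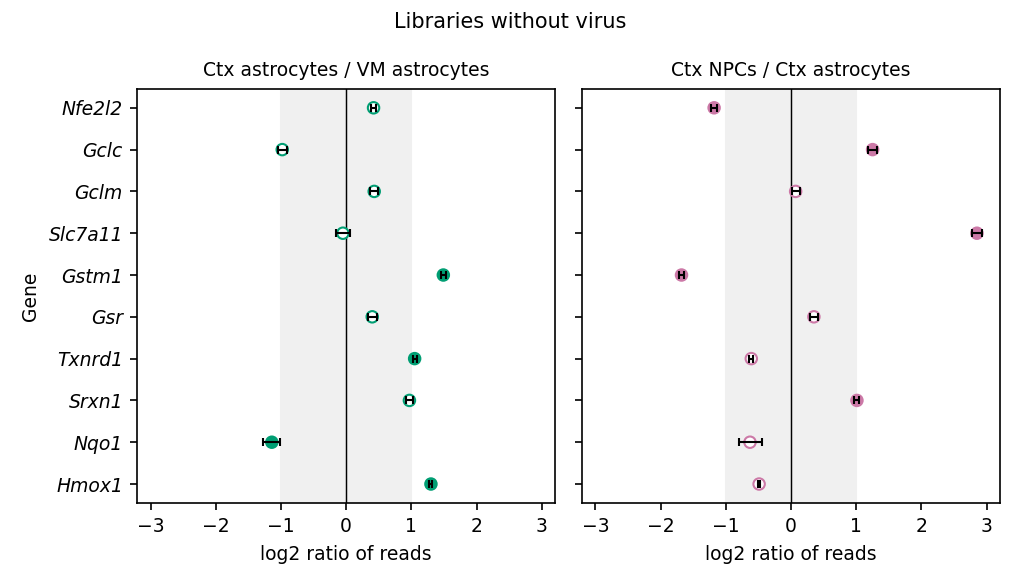
Log2 ratios of the 10 genes between libraries without virus, Ctx against VM astrocytes on the left and Ctx NPCs against Ctx astrocytes on the right, with exact 95% counting intervals, a grey band under 2-fold and filled points past 2-fold. Slc7a11 is the highest point on the right at 2.85, and Gstm1 is higher in Ctx than VM astrocytes and lower in Ctx NPCs than Ctx astrocytes.

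The Ctx NPC library also differed from Ctx astrocytes in its markers, and their part in the result was not tested. Mature oligodendrocyte markers summed to 7488 CPM in Ctx NPCs, compared with 309 CPM in Ctx astrocytes, with 8 of 8 tested higher. Oligodendrocyte progenitor markers summed to 3774 and 665, with 5 of 7 higher. Neuronal markers summed to 1081 and 421, with 7 of 8 higher and 1 lower. Astrocyte markers summed to 11367 and 4623, with 4 of 10 higher, Gfap among them, and 1 lower, Slc1a2 (-2.01). Microglial markers summed to 27.0 and 122, with Trem2 at 0 in Ctx NPCs. Fibroblast and meningeal markers summed to 178 and 1182, with 4 of 8 lower and 1 higher. Proliferation markers summed to 315 and 88.4, with 5 of 6 higher.

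Around the 10 genes, 94 other genes of the pathway were listed by role, and 89 or 90 of them had an FPKM above 1 in each comparison. In NF-titled against C-titled VM astrocytes 12 were higher (13.5%, with 9.53% of all transcripts) and 2 lower (2.25%, with 9.73%), with a median of 0.16. In NF-titled against no virus 0 passed 2-fold, with 0.322% of all transcripts higher and 0.668% lower. In C-titled against no virus 1 was higher (1.12%, with 7.30% of all transcripts) and 11 were lower (12.4%, with 8.48%), with a median of -0.20. The Ctx against VM astrocyte comparison had 4 higher (4.49%, the same share as all transcripts) and 4 lower (4.49%, with 9.89%), with a median of -0.01. In Ctx NPCs against Ctx astrocytes 12 were higher (13.3%, with 20.1% of all transcripts) and 22 lower (24.4%, with 17.9%), with a median of 0.04.

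Of 11 regulators of Nrf2, 0 passed 2-fold in each of the 3 comparisons between VM libraries. The medians were 0.09 in NF-titled against C-titled, 0.07 in NF-titled against no virus and 0.01 in C-titled against no virus. Of all transcripts, 9.53%, 0.322% and 7.30% were higher in these comparisons, and 9.73%, 0.668% and 8.48% were lower. Keap1, which retains Nrf2, had a CPM of 72.1, 68.9 and 65.6 in the no-virus, C-titled and NF-titled libraries, and Bach1, a repressor that competes with Nrf2 for its sites, had 55.7, 72.1 and 66.6. Maff, a small Maf partner, was lower in Ctx than VM astrocytes (-1.30). Mafk (-1.59) and the Nrf2 relative Nfe2l1 (-1.20) were lower in Ctx NPCs than Ctx astrocytes.

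Glutathione S-transferases other than Gstm1 held more genes past 2-fold than any other list in C-titled against no virus and in NF-titled against C-titled. In C-titled against no virus, 5 of 18 were lower (27.8%, with 8.48% of all transcripts) and 0 higher with a median of -0.63, led by Gstm6 (-1.94), Gstm2 (-1.65), Gsta4 (-1.58) and Gstt3 (-1.32). In NF-titled against C-titled, 6 of 18 were higher (33.3%, with 9.53% of all transcripts) with a median of 0.48. Gsta4, for example, had a CPM of 122 without virus, 40.7 in the C-titled and 116 in the NF-titled library. Gstm2 and Gstm6 are among the relatives of Gstm1 whose reads can be shared.

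Of the glutathione synthesis, recycling and peroxidase genes, 2 of 14 were lower in C-titled than no-virus cells (14.3%, with 8.48% of all transcripts). These were Oplah (-1.35), which recycles oxoproline to glutamate, and the secreted peroxidase Gpx3 (-1.04). The glutaredoxin Glrx was higher (1.47), with 2024, 5933 and 1501 reads in the no-virus, C-titled and NF-titled libraries. Gpx4, the peroxidase of membrane lipids, had a ratio of -0.65 in the same comparison and did not pass. It was more than 2-fold lower in Ctx NPCs (32.9 CPM) than in Ctx astrocytes (80.7 CPM).

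In the other lists, Sod3, the extracellular superoxide dismutase, was lower in C-titled than no-virus cells (-1.83), and the ratios of Sod1 (-0.53), Sod2 (0.55) and Cat (-0.42) were under 2-fold. Txnip, which binds and inhibits thioredoxin, was lower in C-titled cells (-1.10), with a CPM of 1203, 560 and 2005 in the no-virus, C-titled and NF-titled libraries. Ephx1, the microsomal epoxide hydrolase, was also lower (-1.56). Prdx1, a peroxiredoxin, was 0.94 above the no-virus library in the C-titled one, under 2-fold, and lower in NF-titled than C-titled cells (-1.27). In the list of Atf4 and its targets, 1 of 10 passed in C-titled against no virus, Ddit4 (-1.41).

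In Ctx against VM astrocytes, the higher genes were Prdx6 (1.90), a peroxiredoxin, Osgin1 (1.34), Gstm6 (1.04) and Sesn3 (1.01). The lower ones were Gstt2 (-1.50), Gstt1 (-1.48), Maff and Mgst2 (-1.07). Prdx6 had a CPM of 2696 in Ctx astrocytes and 724 in no-virus VM astrocytes.

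Ctx NPCs had wide differences in both directions among the listed genes. Sod3 (-6.40), Akr1b8 (-5.25), Gpx3 (-5.09), Gstm2 (-4.86), Txnip (-3.93), Gstm6 (-3.78) and Ephx1 (-3.41) were lower than in Ctx astrocytes, and Fth1, the ferritin heavy chain, was lower by a ratio of -2.48. Mgst2 rested on 1 read in Ctx NPCs and had a ratio of -5.65 with an interval from -11.53 to -3.68. In the other direction, Gsta2 rested on 2 reads in Ctx astrocytes, compared with 56 in Ctx NPCs, a ratio of 4.59 with an interval from 2.99 to 7.99. In the list of 10 genes made up of Atf4 and its targets, 6 were higher (60.0%), Atf4 among them, and 1 was lower, compared with 20.1% and 17.9% of all transcripts. The list's median was 1.17 and that of all transcripts 0.19. These values are by library totals, and the list was not recounted under the 3 other scalings. Under each of them, the higher genes among all other pathway genes fell from 12 to 10. Atf4, a stress-responsive transcription factor known to activate Slc7a11 as well as amino acid synthesis genes, reached 676 CPM in Ctx NPCs compared with 213 CPM in Ctx astrocytes (1.66), and Psat1 (1.48), Shmt2 (1.46) and Phgdh (1.40) of serine and glycine synthesis were also higher. Chac1, an enzyme that degrades glutathione, was higher as well (2.63).

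**Figure D4:**
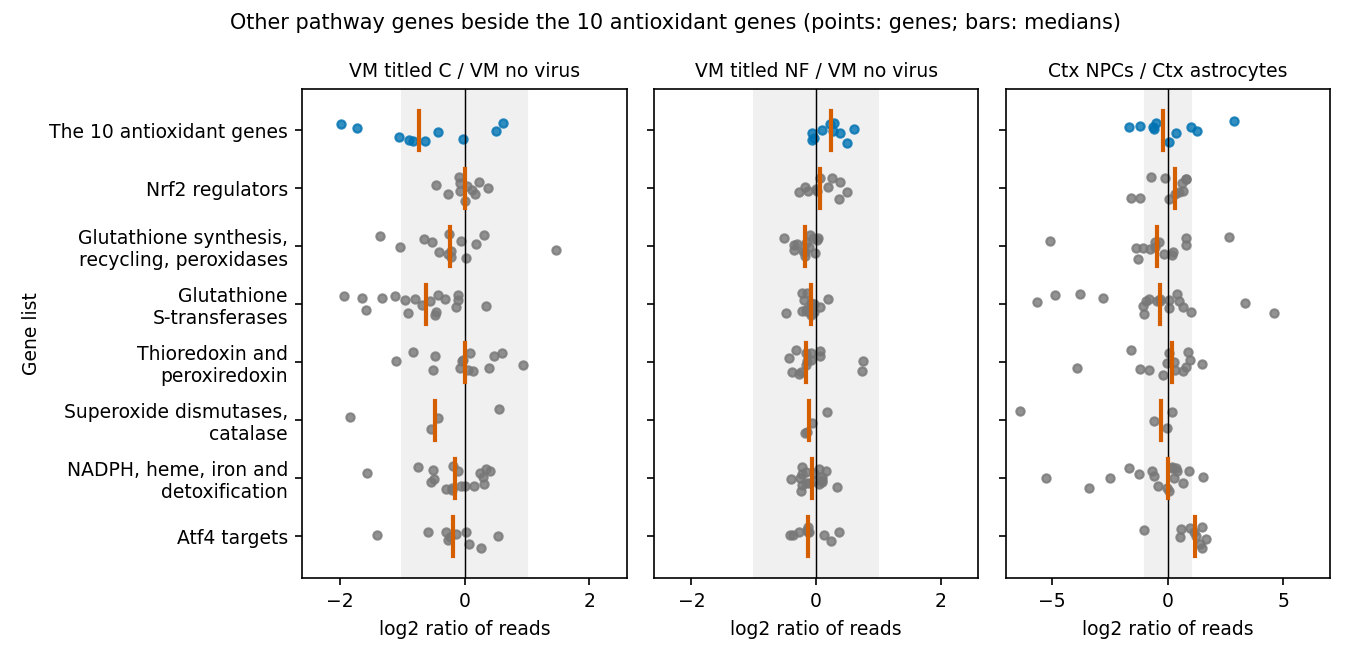
Log2 ratios of the 10 genes and of 7 lists of other pathway genes in C-titled against no-virus VM astrocytes, NF-titled against no-virus VM astrocytes and Ctx NPCs against Ctx astrocytes, with 1 point per gene, an orange bar for each list's median and a grey band under 2-fold; the right panel has a wider axis. The 10 genes have medians of -0.72, 0.25 and -0.21, and Atf4 with its targets has the highest list median in the right panel, 1.17.

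The 10 genes did not share one pattern over the 5 libraries. Patterns were compared as the root mean square difference of log2 CPM after each gene was centred on its own mean over the 5 libraries. By this measure Gclm and Gsr were closest (0.22), followed by Gclm and Txnrd1 (0.26). The pairs farthest apart were Nqo1 with Slc7a11 and Slc7a11 with Gstm1, both at 1.71.

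The same measure was used to name the 3 genes most like each of 9 members among 11553 candidates with a CPM of at least 10 in their highest library. For Nfe2l2 they were Cpe (0.029), Rsph3a (0.030) and Saraf (0.039), and for Gclm they were Zfp383 (0.028), Thrb (0.052) and Ccdc117 (0.057). For Slc7a11 they were Idi1 (0.096), Cyp51 (0.109) and Mvd (0.122), of which Cyp51 had 265 CPM in Ctx NPCs and between 39.5 and 57.6 in the other libraries. Srxn1 was nearest to Asphd2 (0.061), Cttnbp2 and Adgrg1, and Gsr to Dffb (0.072), Nfia and Thsd1.

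The remaining members had less close neighbours. Hmox1 was nearest to Megf10 (0.129), Zhx3 and Ncoa1, Gstm1 to Pcx (0.140), Pls1 and Crb2, Gclc to Angpt1 (0.160), Arhgef28 and Dusp8, and Nqo1 to Igf1r (0.162), Galc and Lgi2. Each pattern has 5 points, and these likenesses are descriptions only.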

How the data were processed

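The authors removed bases under a quality score of 20, aligned the reads with STAR and counted them on RefSeq exons (Release 105) with HTSeq. Their methods name GRCm38/mm10 and the submitters' processing notes name mm9. The deposited counts are unscaled whole numbers, 1 per transcript and library, and the deposited FPKM could be recomputed from them with transcript length to within a relative difference of 4.09e-05. Whether counting used strand is not given in the sources used here.

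Symbols and coordinates came from RefSeq on GRCm38.p6 and 19997 of 20178 transcripts matched. The coordinates given with each gene span the gene and not the named transcript alone, so a start site can lie inside them. Ratios were computed for all transcripts from counts over library totals, with 0.5 added to each count. The 10 genes and the lists were chosen with earlier results of these data known. Named beside them were up to 4 called genes per list and comparison by size, Keap1, Bach1, Atf4, Sod1, Sod2, Cat, Gpx4, the transduced genes and the nearest patterns. The nearest patterns of Txnrd1 are not reported here. Markers shown were chosen to describe the libraries. Alternatives were edgeR 4.0.16 TMM factors, DESeq2 1.42.0 size factors and upper-quartile scaling (R 4.3.3), 0 or 5 added reads, no filter or an FPKM above 1 in both libraries, and cutoffs of 1.5-fold and 2.6-fold. Calculations ran in Python 3.11.15 with scipy 1.17.1 and were tested on simulated counts.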

Additional observations from a re-analysis of the deposited data

How the results depend on the processing

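Each of the 50 ratios of the 10 genes was recomputed under 5 alternatives. Of the 250 values, 200 stayed inside the counting interval and none past 2-fold changed its direction. All values outside the interval came from the 3 other library scalings. Adding 0 or 5 reads to counts of this size could hardly move a ratio. The largest move was 0.19, too small to reverse a ratio past 2-fold. In 6 ratios near 0 the direction changed, those of Hmox1 and Srxn1 in NF-titled against C-titled, Srxn1 in both comparisons with no-virus VM astrocytes, Slc7a11 in Ctx against VM astrocytes and Gclm in Ctx NPCs. A lower or higher fold cutoff counts more or fewer genes by construction. The share of all transcripts at 1.5-fold and 2.6-fold was not computed, so the counts at these cutoffs have no background beside them. At 1.5-fold, 6 of the 10 genes passed in NF-titled against C-titled, 1 in NF-titled against no virus and 7 in C-titled against no virus. In Ctx against VM astrocytes 6 passed, and in Ctx NPCs against Ctx astrocytes 7. The other pathway genes passing were 32 in NF-titled against C-titled, 2 in NF-titled against no virus and 21 in C-titled against no virus. They were 24 in Ctx against VM astrocytes and 56 in Ctx NPCs against Ctx astrocytes. At 2.6-fold, 2 of the 10 genes passed in NF-titled against C-titled, 0 in NF-titled against no virus and 2 in C-titled against no virus. In Ctx against VM astrocytes 1 passed, and in Ctx NPCs against Ctx astrocytes 2. The other pathway genes passing were 9 in NF-titled against C-titled, 0 in NF-titled against no virus and 7 in C-titled against no virus. They were 3 in Ctx against VM astrocytes and 22 in Ctx NPCs against Ctx astrocytes. Without the filter on low values, 3 other pathway genes passed in NF-titled against no virus. No paired analysis was possible because each group has 1 library. For the same reason no library could be left out of a group, and counting intervals do not cover differences between cultures.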
